A study of Drosophila melanogaster with 18 samples.

Results

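The genes described here encode cell surface proteins of the immunoglobulin superfamily that neurons use to recognise each other, in 4 families called dpr, DIP, beat and side. They were taken by symbol from the protein-coding genes of the fly annotation: every dpr gene with a number, every gene whose name starts with DIP- or beat-, and side with its numbered relatives. This gave 54 genes of 13946, made up of 21 dpr, 11 DIP, 14 beat and 8 side genes. The rule uses symbols alone. Their windows, each the gene span with 1 kb on both sides, held 9658 of the 767321 GATC ends in the deposited count table. A GATC end is the place where the genome is cut at a methylated GATC, and reads are counted there.

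Dpr proteins (defective proboscis extension response) and their partners, the Dpr-interacting proteins (DIPs), bind each other between cells in a defined code. Most neuron types of the fly carry their own combination of them. Beaten path (Beat) proteins and Sidestep (Side) proteins form a second such code: beat-Ia acts in motor axons and is the receptor for side, which marks the substrates along which those axons grow. In the developing eye these families are known from photoreceptors and from their target neurons in the optic lobe, where dpr and DIP pairs match cells into layers.

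Targeted DamID was used to record chromatin contacts in eye-antennal discs of larvae early in the third instar. In this method a bacterial adenine methylase (Dam) marks GATC sites near the places it reaches. Dam was fused to Scalloped (Dam-Sd), the DNA-binding TEAD protein of the Hippo pathway, to Yorkie (Yki-Dam), its coactivator, or to Jun-related antigen (Dam-Jra), the Jun subunit of AP-1. Dam without a partner was the control. The 6 groups had 3 libraries each: Eyeless-Gal4 Gal80ts UAS-Dam-Sd, Eyeless-Gal4 Gal80ts UAS-Yki-Dam, Eyeless-Gal4 Gal80ts UAS-Dam-Jra, and Eyeless-Gal4 Gal80ts UAS-Dam in 3 sets. All groups shared the driver, the temperature-sensitive repressor and egg laying at 25 °C. The repressor held expression off at 18 °C for 4 days and allowed it for 24 hours at 29 °C. Profiles come from those cells of the dissected disc in which the Eyeless driver acts. The discs were profiled in bulk, so contact in fewer cells and less contact per cell cannot be told apart. The titles put Dam-Sd with Dam Set 1 and Yki-Dam with Dam Set 2. They place Dam-Jra in Set 1 too but leave Dam Set 3 without a fusion. For Dam-Jra the average of all 3 Dam sets therefore served as the control, with Set 1 alone and Set 3 alone given beside it. Dam Sets 1 and 2 thus serve in more than 1 comparison. The labels do not say whether libraries came from separate animals, so p-values measure the spread between libraries, which may be technical.

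Libraries held between 21416846 and 40967981 counted reads. The best-covered 1% of ends carried 41.7% to 51.6% of the reads in Dam-Sd libraries, 42.0% to 48.3% in Yki-Dam libraries and 42.2% to 42.7% in Dam-Jra libraries, against 16.9% to 34.5% in Dam libraries. The Dam-Sd libraries stood apart from each other at the recognition genes: the median over the 54 windows was 0.394, 0.843 and 1.14 CPM per kb in replicates 1, 2 and 3, where CPM stands for a window's reads out of every 1000000 in its library, after TMM scaling. Dam Set 1 gave 0.709, 1.27 and 0.906 CPM per kb and also spread widely. The 3 Dam-Jra libraries lay between 0.306 and 0.319 CPM per kb. A list of 13 markers of eye-antennal disc fate had a median Dam-alone percentile of 84.6 among all windows. Dam-Sd raised 13 of them, Yki-Dam 12 and Dam-Jra 12, while 25.1%, 18.2% and 30.8% of all windows were called higher. The list was chosen with earlier results of these data known, so it is no independent check of the tissue.

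The recognition genes carried few Dam-alone reads for their length. Their windows had a median Dam-alone level of 1.08 CPM per kb over the 9 Dam libraries, against 5.12 CPM per kb for all protein-coding windows. The median member stood at percentile 8.09 of all windows, and at 7.4 to 11.9 in single Dam libraries. Of the 54 genes, 32 were among the lowest 10% of windows, 45 among the lowest 20%, and 3 in the upper 50%. The families differed little in this: median levels were 1.36 CPM per kb for dpr, 0.923 for DIP, 0.978 for beat and 1.17 for side genes.

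The lowest levels were those of DIP-lambda (2R:326768-705848) at 0.548 ± 0.370 CPM per kb (SD over 9 Dam libraries), dpr8 (X:14322226-14462351) at 0.554 ± 0.342 and beat-Vb (3R:12916056-12934813) at 0.591 ± 0.357. These levels differed by less than their spread. Of the 2400 ends in the DIP-lambda window 128 had a mean of at least 10 reads per library. The highest were those of side-IV (3R:13450590-13464184) at 10.8 ± 3.02 CPM per kb, beat-Ib (2L:15905134-15962435) at 6.26 ± 1.36 and DIP-iota (2L:6617134-6621700) at 5.42 ± 1.73. They stood at percentiles 80.3, 58.8 and 52.3. Of the ends in the DIP-iota window 76.5% also lie in the window of CG11050.

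The recognition genes are long, with a median span of 36.15 kb against 2.161 kb for all protein-coding genes, and range from dpr19 at 3.738 kb to DIP-lambda at 379.1 kb. Across the 54 genes the Dam-alone level fell with span (Pearson r = −0.571 and Spearman rho = −0.419 between log10 kb and log2 CPM per kb, as a description). Counted per GATC end in place of per kb, the median percentile was 20.5. The level also differed between the Dam sets, with medians of 0.965 CPM per kb in Set 1, 1.58 in Set 2 and 0.683 in Set 3, and this difference enters every comparison with them.

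**Figure D1:**
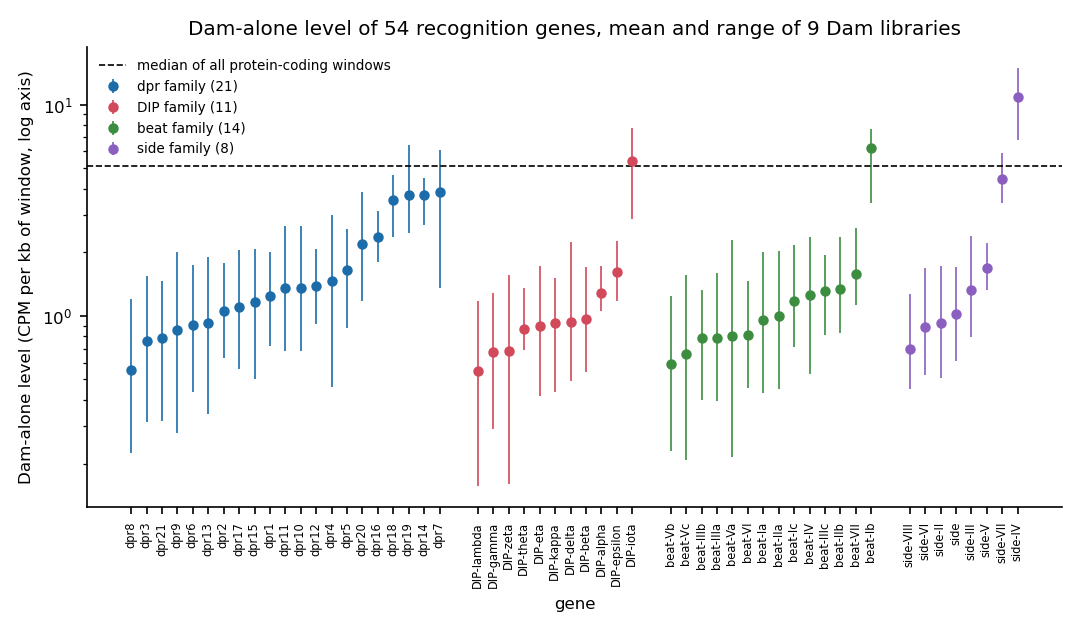
Dam-alone level of each gene on a log axis (points, mean of 9 Dam libraries; bars, lowest to highest library), ordered within the dpr, DIP, beat and side families, with the median of all protein-coding windows as a dashed line. All but side-IV, beat-Ib and DIP-iota lie below the line at 5.12 CPM per kb.

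Other neuronal genes were not uniformly this low. A list of 45 other neuronal recognition genes (Dscam, Robo, Netrin, Semaphorin, Teneurin, Cadherin and related genes) had a median Dam-alone percentile of 35.9, and 13 neuron markers such as elav, brp and nSyb had 15.7. With the fusions the recognition genes were low too: the median percentile was 11.4 for Dam-Sd, 8.48 for Yki-Dam and 9.91 for Dam-Jra libraries. Their median levels there were 0.822, 0.859 and 0.324 CPM per kb, against 0.965 CPM per kb in Dam Set 1, 1.58 in Dam Set 2 and 0.683 in Dam Set 3.

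Dam-Jra was compared with Dam to ask where Jun contacts chromatin. At the recognition genes it gave less signal than Dam nearly throughout. Of the 54 windows, 48 fell and 3 rose (edgeR's quasi-likelihood test, p adjusted by Benjamini and Hochberg across 13838 windows, threshold 0.05), while 38.4% of all windows were called lower and 30.8% higher. The median log2 fold change was −1.84 for the 54 genes and −0.16 for all windows. Among the windows of other genes in the lowest 10% of Dam-alone level, 69% of 1254 were called lower and 3.75% higher, with the same median of −1.84. All 11 DIP genes fell, as did 18 of 21 dpr genes, 13 of 14 beat genes and 6 of 8 side genes. The 3 that were not called are dpr4, dpr12 and dpr18.

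Against Dam Set 1 alone 47 genes fell and 3 rose (38.2% and 29.8% of all windows). Against Dam Set 3 alone 40 fell and 4 rose (27% and 23.5%), with a median of −1.18. The share of reads in the top 1% of ends was 32.5% to 34.5% in Set 3, nearest of the Dam sets to the 42.2% to 42.7% of Dam-Jra. How far this concentration of reads sets the low windows was not tested.

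The lowest value was that of beat-Vb, which encodes a receptor for side-VI. It had 0.69, 0.40 and 0.42 CPM in Dam-Jra libraries, against a lowest, median and highest of 4.77, 10.16 and 25.64 CPM in the 9 Dam libraries. The groups did not overlap, and the Dam-Jra values rest on 17, 10 and 11 reads. Its log2 fold change was −4.43 ± 0.61 (SE; adjusted p = 4.6e-06, edgeR), and −3.59 against Dam Set 3 alone. beat-Vc (3R:12746036-12783216) had 2.44, 3.06 and 1.41 CPM with Dam-Jra, against 8.13, 18.14 and 61.13 CPM in Dam (lowest, median and highest), a log2 fold change of −3.14 ± 0.50 (adjusted p = 2.09e-05, edgeR). beat-Va changed by −2.00 ± 0.50 (adjusted p = 0.00169, edgeR), but by −0.73 against Dam Set 3 alone (adjusted p = 0.286). side-VI itself, the ligand of these receptors, fell by 2.36 ± 0.28 on the log2 scale (adjusted p = 8.06e-07, edgeR).

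dpr21 (2R:3066499-3191011) had 8.61, 10.5 and 10.1 CPM with Dam-Jra, against 40.41, 68.76 and 184.5 CPM in Dam, and fell by 3.15 ± 0.41 on the log2 scale (adjusted p = 2.27e-06, edgeR). DIP-gamma (3R:28925004-28970372), a receptor of medulla neurons that pair with R7 photoreceptors, had 2.92, 4.42 and 3.25 CPM with Dam-Jra. Dam libraries had 13.82, 30.11 and 61.13 CPM (lowest, median and highest), and the log2 fold change was −2.98 ± 0.40 (adjusted p = 2.81e-06, edgeR). In each of these genes every Dam-Jra library lay below every Dam library. At the ends of its span alone dpr21 was not called (−1.22, adjusted p = 0.0905, edgeR). Of the 812 ends in the dpr21 window 65 had a mean of at least 10 reads per library.

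Yki-Dam also gave less signal than its own Dam set at most of these genes. Of 54 genes, 35 fell and 2 rose against Dam Set 2, while 22.8% of all windows were called lower and 18.2% higher (edgeR). The median log2 fold change was −0.97, against −0.26 for all windows. Among other windows of the lowest 10% of Dam-alone level, 17.9% were called lower and 1.12% higher. Their median log2 fold change was −0.783, so their calls differed more from those of the 54 genes than their median did. By family 13 of 21 dpr, 8 of 11 DIP, 8 of 14 beat and 6 of 8 side genes fell.

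The number of Yki-Dam losses depended on the control. Dam Set 2 had the highest level of the 3 sets at these genes, and against the mean of all 3 sets 5 genes fell and 3 rose (23.9% and 21.3% of all windows), with a median of −0.20. Without replicate 2 of Dam Set 2, 17 genes fell, against 2194 of 13850 windows. With the replicate number as a block, 44 fell and 2 rose, against 4567 and 3225 of 13838 windows.

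The 4 lowest genes were dpr5, DIP-theta, beat-VII and DIP-lambda. DIP-theta (2L:5626291-5658560) had 12.2, 12.6 and 14.2 CPM with Yki-Dam, against 26.2, 46.65 and 35.6 CPM in Dam Set 2, and its log2 fold change was −1.48 ± 0.25 (adjusted p = 0.000186, edgeR). beat-VII (3R:26645282-26681966) had 22.8, 26.6 and 29.3 CPM, against 48.25, 101.0 and 62.8 CPM in Dam Set 2, at −1.43 ± 0.22 (adjusted p = 0.000108, edgeR). Both also fell against the mean of the Dam sets, by 1.17 and 1.2 on the log2 scale. dpr5 (3R:11499984-11505951) had 7.45, 5.95 and 7.42 CPM, against 20.5, 20.6 and 17.8 CPM in Dam Set 2, at −1.50 ± 0.32 (adjusted p = 0.0015, edgeR), and −0.82 against the mean of the sets. DIP-lambda fell by 1.34 ± 0.40 against Dam Set 2 (adjusted p = 0.0135, edgeR) but was at −0.25 against the mean of the sets (adjusted p = 0.564). At the span ends alone none of these 4 was called, with dpr5 at −1.27, DIP-theta at −1.2, beat-VII at −0.69 and DIP-lambda at −1.2.

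Dam-Sd left most recognition genes uncalled. Against Dam Set 1, 7 genes fell and 3 rose, with 44 not called, while 30.7% of all windows were called lower and 25.1% higher (edgeR). The median log2 fold change was −0.29, against −0.22 for all windows. Other windows of the lowest 10% of Dam-alone level had 14.8% called lower and 2.55% higher, with a median of −0.415. The 7 that fell were dpr1, dpr14, dpr17, dpr20, DIP-epsilon, DIP-theta and DIP-iota.

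DIP-iota had 6.5, 14.4 and 21.0 CPM with Dam-Sd, against 34.9, 33.0 and 50.8 CPM in Dam Set 1, at −1.50 ± 0.34 (adjusted p = 0.000978, edgeR). dpr14 (X:7903704-7908286) had 6.72, 14.2 and 19.9 CPM, against 29.6, 29.0 and 23.9 CPM in Dam Set 1, at −1.01 ± 0.26 (adjusted p = 0.00295, edgeR). In both genes the libraries did not overlap, with Dam-Sd replicate 1 the lowest. dpr17 changed by −0.93 ± 0.33 (adjusted p = 0.0233, edgeR) and DIP-theta by −0.63 ± 0.24 (adjusted p = 0.0338, edgeR). The dpr17 call was lost without Dam-Sd replicate 1 (−0.53) or without replicate 2 (−0.84) or 3 (−0.85) of Dam Set 1. The DIP-theta call was lost without Dam-Sd replicate 1 (−0.45) or 2 (−0.58) or Dam Set 1 replicate 2 (−0.45). It was lost too with DESeq2 size factors (−0.46), with the DESeq2 Wald test, without flanks (−0.47), at span ends and with its own libraries only (−0.59). The last 2 settings also ended the dpr17 call (−0.23 at span ends and −0.89 with its own libraries).

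The number called moved with single Dam-Sd libraries. Without Dam-Sd replicate 3, whose levels at these genes were the highest, 16 fell, and without replicate 1, whose levels were the lowest, 3 fell. Of all windows 4740 of 13853 fell without Dam-Sd replicate 3 and 3598 of 13854 without replicate 1. Without Dam Set 1 replicate 2, 6 rose and 3 fell, against 3211 and 3784 of 13845 windows. With the replicate number as a block 16 fell and 4 rose, against 5310 and 3928 of 13838 windows. Scaled by library size alone, which puts the median of all windows at −1.41, 46 fell and 1 rose. Of all 13838 windows 10230 fell and 883 rose with that scaling.

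**Figure D2:**
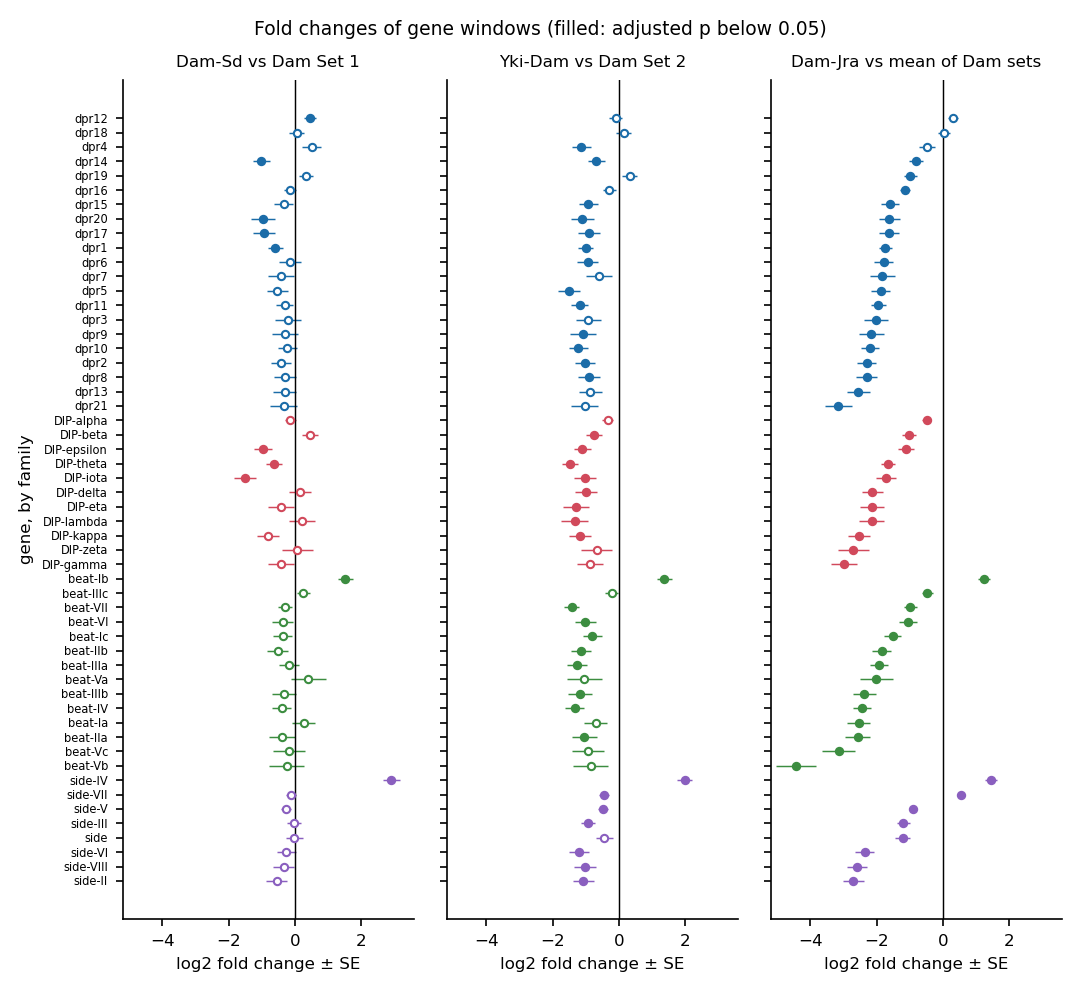
Log2 fold change of each gene window (points, with SE as bars) with Dam-Sd, Yki-Dam and Dam-Jra, each against Dam, by family and ordered by the Dam-Jra value. Filled points passed the adjusted p of 0.05, and side-IV and beat-Ib lie to the right of 0 in all 3 panels while nearly all other genes lie to the left with Dam-Jra.

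The other neuronal recognition genes did not follow this pattern. Of the 45, 21 rose and 6 fell with Dam-Sd (46.7% and 13.3%, against 25.1% and 30.7% of all windows). With Yki-Dam 18 rose and 10 fell (40% and 22.2%, against 18.2% and 22.8%). With Dam-Jra 22 rose and 16 fell (48.9% and 35.6%, against 30.8% and 38.4%, edgeR). The falls with Yki-Dam and Dam-Jra were thus near the shares of all windows. Median log2 fold changes were 0.38, 0.37 and 0.30. Examples are hbs, a Nephrin-like adhesion protein, at 1.89 ± 0.21 with Dam-Sd (adjusted p = 1.24e-06, edgeR) and 1.75 ± 0.21 with Yki-Dam (adjusted p = 1.27e-05, edgeR). Fas2, a homophilic axonal adhesion protein, was at 1.32 ± 0.14 with Dam-Jra (adjusted p = 2.95e-07, edgeR). klg, an immunoglobulin protein needed in R7 photoreceptors, fell by 2.27 ± 0.24 with Dam-Jra (adjusted p = 1.8e-07, edgeR). Among 13 neuron markers 3 rose and 2 fell with Dam-Sd, 1 rose and 9 fell with Yki-Dam and 2 rose and 7 fell with Dam-Jra. These are 23.1% and 15.4%, 7.69% and 69.2%, and 15.4% and 53.8%, beside the same shares of all windows. elav, the pan-neuronal RNA-binding protein, rose by 1.05 ± 0.15 with Dam-Jra (adjusted p = 5.92e-06, edgeR), and ChAT, the enzyme of acetylcholine synthesis, fell by 1.51 ± 0.23 (adjusted p = 1.34e-05, edgeR).

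Markers of other cell types that may come with a disc moved both ways. Their median Dam-alone percentiles were 35.2 for photoreceptor, 60.1 for glial, 21.4 for haemocyte and 44.2 for muscle markers. Of 9 photoreceptor markers 4 rose and 3 fell with Dam-Sd, 4 rose and 4 fell with Yki-Dam, and 5 rose and 4 fell with Dam-Jra. Of 6 glial markers 4 rose and 2 fell with Dam-Sd, 3 rose and 1 fell with Yki-Dam, and 3 rose and 2 fell with Dam-Jra. Of 5 haemocyte markers 1 rose and 2 fell, 2 rose and 2 fell, and 1 rose and 3 fell in the same order of fusions. Of 5 muscle markers 1 rose and 1 fell, 1 rose and 0 fell, and 0 rose and 2 fell. Of all windows 25.1% rose and 30.7% fell with Dam-Sd, 18.2% and 22.8% with Yki-Dam, and 30.8% and 38.4% with Dam-Jra. No list was tested against these shares. The part of these markers in the levels of the recognition genes was not tested.

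**Figure D3:**
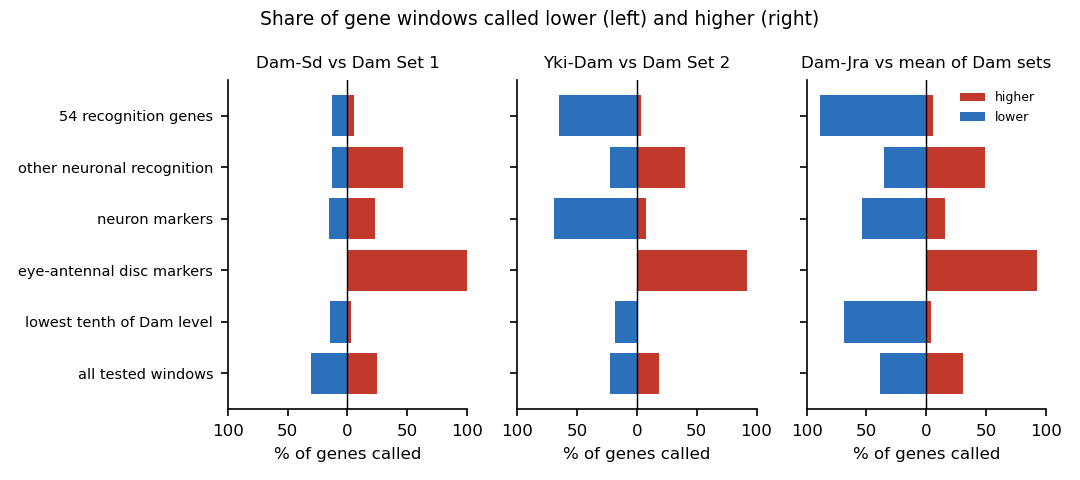
Share of windows in each list called lower (left of 0) and higher (right of 0) with Dam-Sd, Yki-Dam and Dam-Jra against Dam, in percent. With Dam-Jra the 54 recognition genes and the other windows of the lowest 10% of Dam-alone level are mostly lower, and the eye-antennal disc markers mostly higher.

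side-IV and beat-Ib went the other way in all 3 fusions. side-IV encodes a Sidestep-family ligand of beat-IIa and beat-IIb. Its window had 1242, 1074 and 570.0 CPM with Dam-Sd, 658, 563 and 580.5 CPM with Yki-Dam and 448.2, 445.6 and 448.5 CPM with Dam-Jra. Dam libraries had 134, 142 and 105 CPM in Set 1, 158, 124 and 173 CPM in Set 2 and 233, 228.5 and 213 CPM in Set 3. Every fusion library lay above every Dam library.

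The log2 fold changes of side-IV were 2.92 ± 0.24 with Dam-Sd (adjusted p = 1.97e-07), 1.98 ± 0.23 with Yki-Dam (adjusted p = 1e-05) and 1.46 ± 0.17 with Dam-Jra (adjusted p = 7.35e-07), all by edgeR. Dam-Jra gave 0.99 ± 0.23 against Dam Set 3 alone (adjusted p = 0.00159, edgeR). The Dam-Jra change was smaller than the Dam-Sd change by 1.46 ± 0.26 (adjusted p = 0.000286, edgeR). The difference between Dam-Sd and Yki-Dam was 0.94 ± 0.32 and did not pass (adjusted p = 0.101, edgeR).

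beat-Ib, which encodes a receptor related to beat-Ia, had 1037, 870.3 and 504 CPM with Dam-Sd, 1172, 959 and 905 CPM with Yki-Dam and 780.5, 906.5 and 896 CPM with Dam-Jra. Dam libraries had 306, 326 and 204 CPM in Set 1, 400.0, 371 and 400.2 CPM in Set 2 and 443, 454 and 437 CPM in Set 3, again with no overlap. The log2 fold changes were 1.53 ± 0.23 with Dam-Sd (adjusted p = 2.39e-05), 1.37 ± 0.23 with Yki-Dam (adjusted p = 0.000199) and 1.24 ± 0.18 with Dam-Jra (adjusted p = 5.74e-06), all by edgeR. The differences between fusions did not pass, at 0.15 ± 0.32 for Dam-Sd minus Yki-Dam, −0.29 ± 0.26 for Dam-Jra minus Dam-Sd and −0.13 ± 0.26 for Dam-Jra minus Yki-Dam. Its relative beat-Ia was at 0.27 with Dam-Sd, −0.69 with Yki-Dam and −2.54 with Dam-Jra. Scaled by library size alone, the Dam-Sd change of beat-Ib was 0.22 and was not called.

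side-VII (3R:9734012-9739979), a Sidestep-family gene, rose with Dam-Jra alone. It had 49.0, 51.5 and 53.98 CPM with Dam-Jra, 26.65, 28.8 and 24.3 CPM with Dam-Sd and 30.2, 30.3 and 31.85 CPM with Yki-Dam, against 27.25, 35.62 and 46.97 CPM in the 9 Dam libraries (lowest, median and highest). The log2 fold changes were 0.56 ± 0.11 with Dam-Jra (adjusted p = 0.000266, edgeR), −0.11 ± 0.14 with Dam-Sd (adjusted p = 0.533) and −0.45 ± 0.14 with Yki-Dam (adjusted p = 0.0183, edgeR). Dam-Jra exceeded Dam-Sd by 0.67 ± 0.17 (adjusted p = 0.00366) and Yki-Dam by 1.00 ± 0.17 (adjusted p = 0.000269), both by edgeR. Every Dam-Jra library lay above every other library. Scaled by library size alone, which puts the median of all windows at −1.13, the Dam-Jra value was −0.41. In the outer 1 kb on each side of both span ends it was 0.04 and was not called (adjusted p = 0.853, edgeR). Against the mean of the Dam sets the Yki-Dam value was −0.19 and was not called.

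dpr12 (2R:5804712-5860831), the ligand of DIP-delta in mushroom body circuits, had 97.4, 122 and 105.5 CPM with Dam-Sd, against 76.4, 87.2 and 73.8 CPM in Dam Set 1. The change of 0.45 ± 0.19 was just called (adjusted p = 0.0478, edgeR). It was lost without Dam-Sd replicate 2 or without any of the 3 Dam Set 1 libraries (edgeR, adjusted p = 0.135, 0.107, 0.0502 and 0.13). Scaled by library size alone it turned to −0.77.

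**Figure D4:**
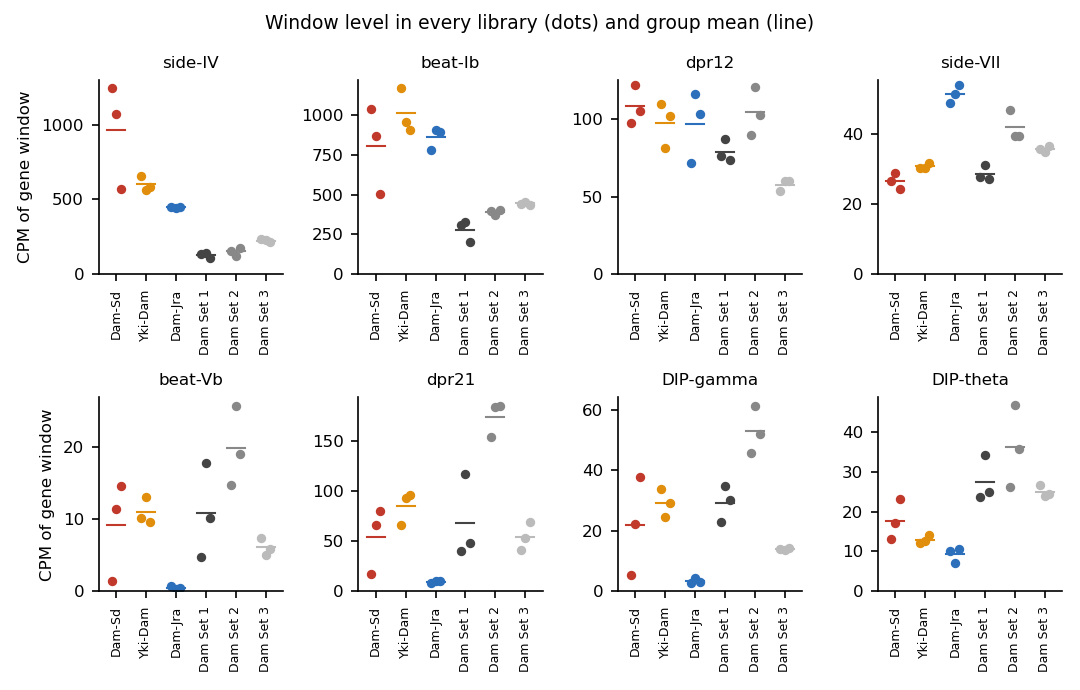
Window level in CPM of 8 genes in every library (dots) with group means (lines), fusions left of the Dam sets. side-IV and beat-Ib stand above Dam in all fusions, side-VII in Dam-Jra, and beat-Vb, dpr21 and DIP-gamma lie near 0 in Dam-Jra.

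A window of a long gene averages over its length, so counts were also summed in tiles of 2 kb across the genome and fitted in the same way. Of 1249 tiles in the windows of the 54 genes 1174 were tested. With Dam-Jra 819 tiles fell and 45 rose (69.8% and 3.83%, against 37.8% and 26% of all 61668 tiles). With Yki-Dam 147 fell and 11 rose (12.5% and 0.937%, against 10.2% and 11.1%). With Dam-Sd 104 fell and 26 rose (8.86% and 2.21%, against 17.3% and 17.4%). Median log2 fold changes of all tiles were −0.14 with Dam-Sd, −0.53 with Yki-Dam and −0.57 with Dam-Jra. In all 51 tiles of 19 genes rose with some fusion, 12 of them with means under 3 CPM in all 3 fusions, and no tile rose in the other 35 genes.

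The loss with Dam-Jra ran along the genes: 53 of 54 held a tile that fell, and in DIP-lambda 106 of 146 tiles fell. The gene without such a tile was side-VII. DIP-lambda is thinly covered, with a mean of at least 10 reads per library at 128 of its 2400 ends, against 2187 of 9658 in all 54 windows. The tile counts of Dam-Jra depended on the control, since 389 tiles fell against Dam Set 3 alone (12182 of all 61668 tiles). The Yki-Dam and Dam-Sd counts changed with single libraries: 50 tiles fell with Yki-Dam without Dam Set 2 replicate 2, 70 without Yki-Dam replicate 2, 74 without Yki-Dam replicate 3 and 95 without Dam Set 2 replicate 3. With Dam-Sd 178 fell without Dam-Sd replicate 3 and 60 without replicate 1, and 15 rose without Dam Set 1 replicate 3. Of all tiles, 13225 of 62145 fell, 9036 of 62183 fell and 8116 of 62122 rose in these 3 settings. In the Yki-Dam settings, in the order above, 2405 of 61939, 3175 of 62167, 3051 of 62176 and 4410 of 61995 fell.

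The gains of side-IV lay at the low-coordinate end of the gene. The 16 GATC ends between 1 kb before the span and 5 kb into it, of 58 in the window, held 99.3% of the window's reads with Dam-Sd, 98.6% with Yki-Dam and 99.1% with Dam-Jra, against 95.8%, 95.4% and 97.8% in Dam Sets 1, 2 and 3 (means of 3 libraries). The level there was 957 ± 350 CPM with Dam-Sd, 592 ± 50.7 with Yki-Dam and 443 ± 1.39 with Dam-Jra, against 122 ± 19.6, 145 ± 25.9 and 220.1 ± 10.5 CPM in Dam Sets 1, 2 and 3 (SD, n = 3). The rest of the window held between 3.82 and 8.38 CPM on average in every group. When only the outer 1 kb on each side of both span ends was counted, the Dam-Sd value of side-IV was 0.51 and was not called (adjusted p = 0.0563, edgeR). The antisense RNA genes asRNA:CR17025 and asRNA:CR46354 and mir-252 also overlap the window, and reads of overlapping genes cannot be told apart.

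Neighbouring tiles in that stretch ordered the fusions differently. The first tile (3R:13450001-13452000), which holds the span start, had 45.7 ± 8.33 CPM with Dam-Sd, 85.8 ± 30.5 with Yki-Dam and 172 ± 6.70 with Dam-Jra, against 28.7 ± 1.68, 30.5 ± 11.1 and 37.9 ± 2.67 CPM in Dam Sets 1, 2 and 3. Its log2 fold changes were 0.67 ± 0.30 with Dam-Sd (adjusted p = 0.0961), 1.49 ± 0.31 with Yki-Dam (adjusted p = 0.00216) and 2.42 ± 0.22 with Dam-Jra (adjusted p = 6.27e-08, edgeR). The next tile (3R:13452001-13454000) had 604 ± 277 CPM with Dam-Sd, 345 ± 105 with Yki-Dam and 263 ± 24.2 with Dam-Jra, against 58.4 ± 18.4, 77.8 ± 29.3 and 126 ± 8.16 CPM in the Dam sets. Its changes were 3.37 ± 0.42, 2.15 ± 0.40 and 1.67 ± 0.29 (adjusted p = 1.39e-05, 0.00101 and 8.19e-05, edgeR). The highest fold change was that of Dam-Jra in the first tile and that of Dam-Sd in the next. Differences between fusions were not tested for tiles.

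Most of the gain of beat-Ib lay inside the gene. The 42 ends from 2 to 11 kb after the span start, of 244 in the window, had 686 ± 278 CPM with Dam-Sd, 895 ± 144 with Yki-Dam and 770.1 ± 69.0 with Dam-Jra, against 187 ± 56.2, 247 ± 28.0 and 319.8 ± 18.5 CPM in Dam Sets 1, 2 and 3 (SD, n = 3). The rest of the window had 118 ± 19.4, 118 ± 16.6 and 90.5 ± 4.82 CPM with the fusions, against 91.2 ± 21.4, 143 ± 13.9 and 125 ± 15.1 CPM in the Dam sets. The non-coding genes lncRNA:CR44867 (2L:15911691-15912062) and lncRNA:CR44868 (2L:15912558-15913109) lie within the stretch. Outside it the tile 2L:15928001-15930000 had 65.0 ± 27.2 CPM with Dam-Sd, against 22.9 ± 7.25 CPM in Dam Set 1, and rose by 1.51 ± 0.38 with Dam-Sd and 1.18 ± 0.29 with Dam-Jra (adjusted p = 0.00439 and 0.00183, edgeR). Yki-Dam was at 0.53 ± 0.38 there (adjusted p = 0.309). Dam-Jra had 92.1 ± 7.24 CPM in this tile and Dam Set 3 had 85.0 ± 11.7. Against Dam Set 3 alone the Dam-Jra value was 0.12 ± 0.38 and was not called (adjusted p = 0.831, edgeR). When only the outer 1 kb on each side of both span ends was counted, beat-Ib was at −0.53 with Dam-Sd, −0.69 with Yki-Dam and −1.95 with Dam-Jra.

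dpr12 held a gain that was little seen in its whole window. The tile 2R:5816001-5818000, from 11.3 kb after the span start, had 51.4, 42.8 and 22.8 CPM with Dam-Sd, 34.7, 18.8 and 25.8 CPM with Yki-Dam and 40.4, 61.8 and 45.6 CPM with Dam-Jra. Dam libraries had 4.91, 7.16 and 4.69 CPM in Set 1, 11.4, 9.19 and 9.06 CPM in Set 2 and 8.51, 8.39 and 9.78 CPM in Set 3. No fusion library overlapped a Dam library. The log2 fold changes were 2.80 ± 0.33 with Dam-Sd (adjusted p = 1.04e-05), 1.42 ± 0.31 with Yki-Dam (adjusted p = 0.00353) and 2.64 ± 0.23 with Dam-Jra (adjusted p = 2.94e-08), all by edgeR. The reference table lists no other gene in that tile. The authors' deposited table places a Dam-Jra peak elsewhere in dpr12 (2R:5806182-5807192).

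**Figure D5:**
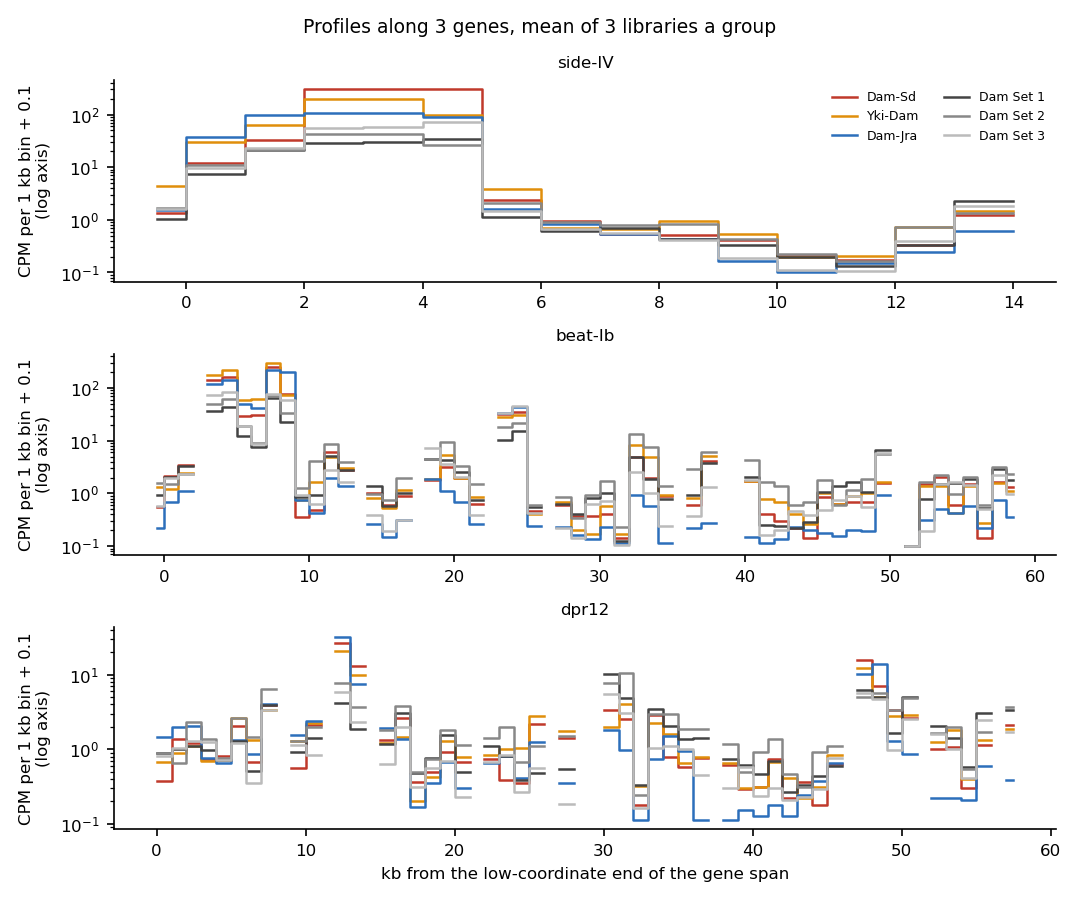
Mean CPM per bin of 1 kb plus 0.1 (log axis, 3 libraries a group) along side-IV, beat-Ib and dpr12, by distance in kb from the low-coordinate end of the span; bins without a GATC end are left blank. Fusion lines stand above the grey Dam lines in the first 5 kb of side-IV, near 3 to 9 kb in beat-Ib and near 12 kb in dpr12, and run at or below them elsewhere in most bins.

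Smaller gains were seen in other genes. In beat-IIIc the tile 2L:17222001-17224000, from 34.4 kb after the span start, had 5.85, 3.46 and 1.10 CPM with Dam-Sd, 10.4, 6.33 and 7.69 CPM with Yki-Dam and 13.4, 16.2 and 14.6 CPM with Dam-Jra, against 0.927 ± 0.553, 1.45 ± 0.626 and 1.89 ± 0.840 CPM in Dam Sets 1, 2 and 3. The log2 fold changes were 1.90 ± 0.56 (adjusted p = 0.0116), 2.49 ± 0.56 (adjusted p = 0.00388) and 3.43 ± 0.39 (adjusted p = 7.47e-07) with Dam-Sd, Yki-Dam and Dam-Jra (edgeR). Dam-Sd replicate 3, at 1.10 CPM, overlapped Dam Set 1. The tile at the low-coordinate end of the dpr18 window (X:16062001-16064000) rose by 1.63 ± 0.34, 1.06 ± 0.34 and 1.74 ± 0.25 (adjusted p = 0.000922, 0.0299 and 1.22e-05, edgeR), and it also holds the gene CG12395. A tile inside side (3R:27396001-27398000) rose by 1.30 ± 0.38, 1.34 ± 0.38 and 0.82 ± 0.30 (adjusted p = 0.0117, 0.0164 and 0.0217, edgeR), though by 0.13 against Dam Set 3 alone with Dam-Jra.

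DIP-alpha, the receptor for dpr6 and dpr10, held tiles with different behaviour. The tile X:3544001-3546000 overlaps lncRNA:CR34335. It rose by 1.05 ± 0.28, 0.92 ± 0.28 and 1.12 ± 0.21 with Dam-Sd, Yki-Dam and Dam-Jra (adjusted p = 0.00586, 0.0229 and 0.000208, edgeR). Against Dam Set 3 alone its Dam-Jra value was 0.58 ± 0.28 and was not called (adjusted p = 0.102, edgeR). The tile X:3538001-3540000 had 18.3, 16.5 and 5.69 CPM with Dam-Sd, against 2.90, 4.30 and 2.66 CPM in Dam Set 1, and rose by 2.04 ± 0.44 (adjusted p = 0.00128, edgeR). There Yki-Dam was at −0.64 ± 0.44 (adjusted p = 0.291) and Dam-Jra at −0.91 ± 0.38 (adjusted p = 0.0455, edgeR). Against Dam Set 3 alone that Dam-Jra value was −0.92 ± 0.45 and was not called (adjusted p = 0.112, edgeR). In DIP-beta, another gene for a Dpr-binding receptor, the tile X:21432001-21434000 rose by 1.77 ± 0.44 with Dam-Sd (adjusted p = 0.00346, edgeR), with 0.54 ± 0.43 for Yki-Dam and 0.50 ± 0.34 for Dam-Jra.

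In side-VII the Dam-Jra gain covered 2 neighbouring tiles. The tile 3R:9736001-9738000 had 29.4 ± 0.724 CPM with Dam-Jra, against 11.7 ± 0.574, 17.2 ± 3.92 and 16.7 ± 0.979 CPM in Dam Sets 1, 2 and 3, and rose by 0.97 ± 0.18 (adjusted p = 0.000148, edgeR). The tile 3R:9738001-9740000, which holds the gene's high-coordinate end, had 14.5 ± 1.41 CPM, against 3.25 ± 0.654, 5.56 ± 2.42 and 2.78 ± 0.169 CPM, and rose by 1.98 ± 0.24 (adjusted p = 1.39e-06, edgeR). The authors' deposited table has a Dam-Jra peak of 240 bases across the border of these tiles (3R:9737839-9738078, with their log2 fold change of 2.29).

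Known partner genes were read side by side. dpr11 and DIP-gamma, which pair R7 photoreceptors with medulla neurons, changed by −1.95 ± 0.23 and −2.98 ± 0.40 with Dam-Jra (adjusted p = 8.3e-07 and 2.81e-06), and by −1.18 ± 0.25 and −0.86 ± 0.39 with Yki-Dam (adjusted p = 0.00148 and 0.0841, edgeR). Against the mean of the Dam sets the Yki-Dam value of dpr11 was −0.33 and was not called (adjusted p = 0.213, edgeR). dpr6, dpr10 and DIP-alpha changed by −1.79 ± 0.30, −2.21 ± 0.27 and −0.49 ± 0.14 with Dam-Jra (adjusted p = 3.37e-05, 1.04e-06 and 0.00459, edgeR). The DIP-alpha call was lost without Dam-Jra replicate 3 (−0.34) and against Dam Set 3 alone (−0.29). dpr12 and DIP-delta were at 0.31 ± 0.15 and −2.12 ± 0.31 (adjusted p = 0.0732 and 8.01e-06, edgeR). The dpr12 value was called at 0.52 without Dam-Jra replicate 1 and at 0.75 against Dam Set 3 alone.

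Among Side and Beat partners, side was at −1.21 ± 0.23 and beat-Ia at −2.54 ± 0.35 with Dam-Jra (adjusted p = 0.000133 and 3.75e-06). side-II was at −2.70 ± 0.31 and beat-VI at −1.06 ± 0.27 (adjusted p = 5.69e-07 and 0.00197, edgeR), the second at −0.39 against Dam Set 3 alone (adjusted p = 0.309). side-IV rose by 1.46 while its partners beat-IIa and beat-IIb fell by 2.57 ± 0.37 and 1.85 ± 0.28 (adjusted p = 8.05e-06 and 1.38e-05, edgeR). With Yki-Dam side-IV rose by 1.98 while beat-IIa and beat-IIb were at −1.04 ± 0.39 and −1.14 ± 0.31 (adjusted p = 0.0385 and 0.00718, edgeR). The beat-IIa call was lost without any 1 of the 3 Yki-Dam libraries or without replicate 2 or 3 of Dam Set 2 (−1.10 to −0.80). Against the mean of the Dam sets neither was called with Yki-Dam, with beat-IIa at −0.27 and beat-IIb at −0.53 (adjusted p = 0.514 and 0.103, edgeR).

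Of these partner genes none but side-IV and dpr12 was called with Dam-Sd. With the replicate number as a block DIP-gamma (−0.75), side-II (−0.71), beat-IIa (−0.67) and beat-IIb (−0.69) passed there (adjusted p = 0.0446, 0.0107, 0.0436 and 0.0141, edgeR). Without Dam-Sd replicate 3 these 4 and beat-VI (−0.82) were called lower, and without Dam Set 1 replicate 2 beat-Ia was called higher at 0.87. With Yki-Dam the block added beat-Va (−1.04), beat-Vb (−0.83), beat-Vc (−0.94), beat-Ia (−0.68), DIP-gamma (−0.86) and DIP-alpha (−0.33), with adjusted p = 0.00572, 0.0318, 0.0145, 0.0315, 0.0216 and 0.0341 (edgeR). The Yki-Dam values of dpr6 (−0.94), side-II (−1.07), beat-VI (−1.01) and DIP-delta (−0.99) were called (adjusted p = 0.0271, 0.013, 0.0162 and 0.0213, edgeR) but not without Dam Set 2 replicate 2 (−0.82, −0.88, −0.90 and −0.62). Against the mean of the Dam sets these 4 values were −0.06, −0.40, −0.23 and −0.14, and none was called. That of dpr6 was lost also without Yki-Dam replicate 2 or 3, and that of DIP-delta without Yki-Dam replicate 1.

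The fusions were compared through the difference of their fold changes. Dam-Jra was lower than Dam-Sd at 43 of the 54 genes and higher at 1, against 23.2% and 19.3% of all windows (edgeR). It was lower than Yki-Dam at 21 genes and higher at 1, against 12.7% and 13.5% of all windows. The gene that was higher in both was side-VII. With the replicate block, which ties Dam-Jra to Dam Set 1 by number, Dam-Jra was lower than Yki-Dam at 32 genes and at 2643 of 13838 windows. Dam-Jra libraries did not pair by number. Among other windows of the lowest 10% of Dam-alone level, Dam-Jra was lower than Dam-Sd in 41.3% and lower than Yki-Dam in 23%. Their median differences were −1.32 and −1.03, against −1.47 and −0.79 for the 54 genes. The widest gap was at beat-Vb, with −4.20 ± 0.71 for Dam-Jra minus Dam-Sd (adjusted p = 0.000166, edgeR). Dam-Jra and the other fusions share control libraries in these differences. Their controls also differ, with the mean of the 3 Dam sets for Dam-Jra, Set 1 for Dam-Sd and Set 2 for Yki-Dam. Gaps between the Dam sets therefore enter the differences. Against the mean of the 3 sets the median of the 54 genes was −0.33 with Dam-Sd, −0.20 with Yki-Dam and −1.84 with Dam-Jra. Differences with that control for all fusions were not tested.

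Between Dam-Sd and Yki-Dam 1 gene was called higher and 0 lower, against 1.79% and 1.61% of all windows (edgeR). It was dpr4, which had 20.6, 19.8 and 15.9 CPM with Dam-Sd and 16.2, 11.2 and 12.1 CPM with Yki-Dam. Dam Set 1 had 9.33, 19.2 and 10.9 CPM and Dam Set 2 had 21.7, 34.2 and 30.6 CPM. The difference of 1.64 ± 0.41 (adjusted p = 0.033, edgeR) joins a Dam-Sd value of 0.51 ± 0.29 (adjusted p = 0.137, edgeR) and a Yki-Dam value of −1.13 ± 0.29 (adjusted p = 0.0052, edgeR). Mean levels of dpr4 were 1.63 CPM per kb with Dam-Sd and 1.15 with Yki-Dam. They were 1.14 in Dam Set 1 and 2.52 in Dam Set 2, so the gap between the Dam sets enters this difference. The count of genes called higher was 9 without Dam-Sd replicate 1 and 3 without Dam Set 2 replicate 1. It was 4 without Dam-Sd replicate 3 or Dam Set 1 replicate 2. It was 0 without Dam-Sd replicate 2 or without Yki-Dam replicate 2 or 3. It was also 0 without Dam Set 1 replicate 1 or 3, or Dam Set 2 replicate 2 or 3. With the replicate block it was 12. Of all windows, 1887 of 13838 were called higher with the block and 1689 of 13853 without Dam-Sd replicate 3. The number was 215 of 13854 windows without Dam-Sd replicate 1 and 156 of 13845 without Dam Set 1 replicate 2. Without Dam Set 2 replicate 1 it was 257 of 13853.

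Single GATC ends were also compared by rank, with no model. Of the 9658 ends in the windows 2187 had a mean of at least 10 reads per library. Every Dam-Jra library lay below every Dam library at 30.1% of them and above at 3.2%, against 14% and 19.7% of all such ends. For Yki-Dam and Dam Set 2 the shares were 33.7% and 4.12%, against 15.5% and 18.1% of all such ends. For Dam-Sd and Dam Set 1 they were 20.3% and 5.35%, against 23.1% and 21% of all such ends. With a mean of at least 30 reads the shares above were 10.2% for Dam-Jra, 11.6% for Yki-Dam and 13.2% for Dam-Sd. Scaled by library size alone, the shares below were 49%, 62.4% and 41.5% and those above 1.1%, 2.24% and 1.42%, in the same order. Both read cutoffs take the mean over all 18 libraries, so an end can pass because a fusion is high there. Shares of all ends were not computed for the cutoff of 30 reads or for library size alone.

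Few of the authors' peaks fell in these genes. The authors' deposited table put a peak in the windows of 6 genes with Dam-Sd, 5 with Yki-Dam and 7 with Dam-Jra, while 26.4%, 20.8% and 26.8% of all protein-coding windows held such a peak. In 44 of the 54 genes there was no peak in any list, and all 3 lists had a peak in beat-Ib, side-IV and DIP-alpha. In the authors' deposited table the side-IV peaks were 3R:13453471-13455168 for Dam-Sd (log2 fold change 2.52), 3R:13450321-13455168 for Yki-Dam (1.86) and 3R:13451576-13453738 for Dam-Jra (1.70). Every peak in the authors' deposited table lay within 5 kb of a transcript start.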

How the data were processed

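Targeted DamID libraries (18, in 6 groups of 3) were analysed from a deposited table of read counts per GATC end. The authors made these counts with Subread and featureCounts on dm6, per the submitters' processing notes, and their versions are not given in the sources used here. Each peak of the authors' lists has its log2 fold change and p-value, and edgeR and bedtools stand in the submitters' processing notes. Which Dam libraries entered those lists is not stated.

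Gene spans came from the RefSeq Release 6 table. Counts were summed over each span with 1 kb flanks and, chosen after the gene windows had been seen, over tiles of 2 kb. Ends in overlapping windows were counted in each. All 18 libraries were fitted as 6 groups (12 residual degrees of freedom) with edgeR 4.0.16 (R 4.3.3, limma 3.58.1), TMM factors of 0.513 to 1.78, filterByExpr at a minimum count of 10, quasi-likelihood tests and Benjamini-Hochberg adjustment over all windows or tiles, with calls at adjusted p below 0.05. DESeq2 1.42.0 was an alternative. SE was taken as |log2 fold change| divided by √F. The script was tested on simulated data.

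Library totals ran from 21416846 to 40967981 reads. Counts carry no molecular identifiers, so low counts limit precision beyond counting error. Deviations of libraries with equal numbers correlated at 0.559, 0.378 and 0.377 between Dam-Sd and Dam Set 1, and at 0.616, 0.387 and 0.304 between Yki-Dam and Dam Set 2. Each Dam-Sd library correlated best with the Dam Set 1 library of its number. Yki-Dam replicate 3 correlated better with Dam Set 2 replicate 2 (0.361) than with replicate 3, so pairing of replicates 2 and 3 is not clear there. The main fit used no pairing, and the replicate block was an alternative. Equal numbers did not pair Dam-Jra and Dam Set 1 (−0.245, −0.0247 and −0.0829).

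The members and gene lists were chosen with earlier results of these data known. Genes named in the text are, per comparison, up to 4 called members with the highest and 4 with the lowest fold change, the 3 lowest and 3 highest Dam-alone levels, and known binding partners. Genes named for their tiles, and dpr4, were chosen after their values were seen. Tests at transcript starts were not made, since the gene table gives no strand; the outer 1 kb on each side of both span ends was used in their place.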

Additional observations from a re-analysis of the deposited data

Results flagged for a closer look

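side-VII, which encodes a Sidestep-family surface protein, stood out because it changed in opposite directions with 2 fusions: it rose by 0.56 ± 0.11 with Dam-Jra and was at −0.45 ± 0.14 with Yki-Dam (log2 scale). The difference itself, Dam-Jra minus Yki-Dam, was 1.00 ± 0.17 (edgeR quasi-likelihood test, adjusted p = 0.000269). The Yki-Dam value was −0.19 when the mean of the 3 Dam sets was the control, and the Dam-Jra value was −0.41 when libraries were scaled by size alone and 0.04 (adjusted p = 0.853, edgeR) at the span ends.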

How the results depend on the processing

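Alternatives added after the data had been seen were the span ends alone and all tile settings. Tests at transcript starts were not run, since strand is not in the gene table. Of 1426 alternatives for 74 results on single genes, 1287 stayed on the same side of the threshold, 79 lost the call, 49 gained it and 11 reversed. Direction was compared only where the result was called in the main fit or in the alternative. Turns of sign among results uncalled in both were not counted. The cause was not tested for any change below.

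For gene windows with Dam-Sd, 3 genes rose, against 5 with DESeq2 size factors, 1 with library size, 5 without flanks and 6 with the DESeq2 Wald test, and 2 to 6 with single libraries left out. Dam-Sd lowered 7 genes, against 3 at adjusted p below 0.01, 46 with library size, 4 without flanks, 11 against the mean of the Dam sets, 2 with its own libraries only, 16 with the replicate block, and 3 to 16 with libraries left out. With Yki-Dam 2 rose, against 1 at span ends, and 35 fell, against 13 at adjusted p below 0.01, 12 at span ends, 5 against the mean of the Dam sets, and 17 to 33 with libraries left out. The replicate block moved no count of gene calls beyond 1.5 times other than those given here.

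Dam-Sd exceeded Yki-Dam at 1 gene, against 0 at adjusted p below 0.01, 3 with DESeq2 size factors, 0 with library size, 2 without the filter, 2 with ends in 1 window only, 3 at span ends, 0 with own libraries, 12 with the replicate block, 6 with the Wald test, and 0 to 9 with libraries left out. Of all 13838 windows Dam-Sd exceeded Yki-Dam at 248 in the main fit, 1887 with the replicate block and 821 with the Wald test. Dam-Jra exceeded Dam-Sd at 2 genes and was lower at 27 at span ends. Dam-Jra exceeded Yki-Dam at 2 with ends in 1 window only and at 2 at span ends, and was lower at 9 at adjusted p below 0.01, at 7 at span ends and at 32 with the replicate block. The median Dam-alone percentile of 8.09 was 20.5 per GATC end and 11.7 with ends in 1 window only. The authors' deposited table gave a Dam-Jra peak to 7 genes, and to 3 genes one at or above the median fold change.

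For tiles, the Dam-Sd counts (26 higher, 104 lower) were 15 and 42 at adjusted p below 0.01, 5 and 327 with library size, and 15 to 36 and 60 to 178 with libraries left out, with 42 higher against the mean of the Dam sets. The Yki-Dam counts (11 and 147) were 6 and 503 with library size and 17 and 248 with the replicate block, with 38 higher against the mean of the Dam sets, 51 lower at adjusted p below 0.01 and 50 to 112 lower with libraries left out. With Dam-Jra 11 tiles rose with library size and 389 fell against Dam Set 3, against 5497 and 12182 of all 61668 tiles. With library size 26945 of all 61668 tiles fell with Dam-Sd and 23847 with Yki-Dam. With the replicate block 11590 fell with Yki-Dam.

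Directions turned for beat-Ib at span ends (−0.529 with Dam-Sd, −0.685 with Yki-Dam, −1.95 with Dam-Jra), for dpr12 with library size (−0.768 with Dam-Sd, −0.655 with Dam-Jra) and at span ends (−1.18 and −1.01), for DIP-delta with Dam-Sd and library size (−0.962), for dpr8 with Yki-Dam against the mean of the Dam sets (0.0652), for side-VII with Dam-Jra and library size (−0.412) and for DIP-alpha with Dam-Jra at span ends (0.123). Low windows limit what can be seen: beat-Vb had 10 to 17 reads in Dam-Jra libraries.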
